A study of Mus musculus with 6 samples.

Results

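The genes described here encode 4 families of pre-mRNA splicing factors: the heterogeneous nuclear ribonucleoproteins (hnRNPs), the serine- and arginine-rich (SR) proteins, the proteins of the small nuclear ribonucleoproteins (snRNPs), and the SF3A and SF3B subunits. They were chosen by gene symbol alone (names starting with Hnrnp, Srsf with a number, Snrp followed by a letter from a to g, Snrnp with a number, and Sf3a or Sf3b with a number), leaving out 2 names marked as pseudogenes. This gave 59 genes of 55951 in the expression table: 20 hnRNP, 11 SR, 19 snRNP and 9 SF3 genes. No symbol had more than 1 row. GENCODE M21 (mouse build GRCm38) lists 1 of the 59, Snrpert, as a processed pseudogene.

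RNA was measured in spleen cells labelled as CD8+ effector-memory T cells, from C57BL/6 mice carrying an S100A4-EGFP reporter, in which EGFP stands for expression of S100A4, after asthma had been induced with ovalbumin. Cells of both groups were sorted as CD3+CD8+CD4-CD44+CD62L- and then split by the reporter: cells without EGFP make up the S100A4-negative group and cells with EGFP the S100A4-positive group. All mice thus shared the strain, the reporter and the asthma model, the treatment label of every library reads untreated, and age was not given in the sources used here. Each group had 3 libraries. Nothing in the labels says whether these came from separate animals, so p-values measure only the spread between these libraries, which may be technical.

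Introns are removed from pre-mRNA by the spliceosome, which is built from the U1, U2, U4, U5 and U6 snRNPs. A separate and rarer spliceosome with the U11 and U12 snRNPs removes the minor class of introns. SR proteins mostly promote the use of nearby exons, and hnRNPs coat the transcript and often oppose it. T cells use such regulators when they change the splicing of Ptprc, which encodes CD45, upon activation, with Hnrnpl and Hnrnpll among the factors known for it.

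The libraries held 14925260 to 18660188 reads, recovered from the deposited values. S100a4 itself was read at 0, 0.405 and 0.129 FPKM (fragments per kilobase of transcript, scaled to the library) in S100A4-negative and at 1.27, 4.02 and 1.52 FPKM in S100A4-positive libraries. These values rest on only 0, 3 and 1 reads in S100A4-negative and 9, 25 and 11 reads in S100A4-positive libraries. The cell identity markers of the S100A4-positive libraries went against the CD8+ T cell label. In these libraries Cd8b1 and Cd3e were at 14.9 ± 5.06 and 23.5 ± 6.20 FPKM, and the macrophage genes Csf1r and Lyz2 at 1040 ± 204 and 3039 ± 169 FPKM (SD, n = 3). In S100A4-negative libraries the same genes were at 142 ± 46.6, 146 ± 19.1, 22.7 ± 9.88 and 312 ± 60.9 FPKM. All 12 T cell markers examined fell in S100A4-positive libraries, with a summed level of 2325 to 2781 FPKM in S100A4-negative and 367 to 522 FPKM in S100A4-positive libraries. All 14 monocyte and macrophage markers rose, from a summed 622 to 866 FPKM to 8468 to 9675 FPKM, and 7 of 8 dendritic cell markers rose, from a summed 48.0 to 84.5 FPKM to 360 to 513 FPKM. Of 8 B cell markers 7 fell, from a summed 560 to 1584 FPKM to 298 to 484 FPKM. Of 7 plasma cell markers 6 fell and 1 rose, with a summed 1326 to 2782 FPKM and 358 to 652 FPKM. Of 8 neutrophil markers 7 fell, from a summed 3460 to 5184 FPKM to 438 to 1841 FPKM. The S100A4-negative libraries thus also held markers of other cell types and cannot be read as T cells alone. In each of them the neutrophil markers summed to more FPKM than the T cell markers. Red blood cell and platelet markers had 1 of 4 tested lower, and their summed levels overlapped (59.5 to 261 and 49.4 to 221 FPKM). No marker of these lists was at 0 in every library. The part of these markers in the results that follow was not tested, and in such bulk samples fewer cells of a type and less RNA per cell cannot be told apart.

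With FPKM as deposited, the splicing factor genes had a median difference close to that of all tested genes, and the calls were mostly falls. Of the 57 members with a mean of at least 1 FPKM, 28 fell, 2 rose (Snrnp35 and Hnrnph2) and 27 did not pass, in limma's test on log2(FPKM + 1) across 13241 genes with calls at a Benjamini-Hochberg adjusted p under 0.05. Over all tested genes, 43.4% were called lower, 19.0% higher and 62.3% in either direction. The median log2 fold change (S100A4-positive minus S100A4-negative) was -0.40 for the members and -0.36 for all tested genes. The fold changes of the members lay in a narrow band: 34 of 57 were within 0.25 of the median of all tested genes, against 28.3% of all tested genes, and the members ranged from -0.96 to 1.09 where all genes ranged from -4.62 to 7.69. Such closeness was not particular to these families. In the 9 lists of other splicing genes described below, the share within 0.25 varied widely. It ran from 3 of 10 minor spliceosome genes outside the families to 17 of 23 Prp19 complex and second-step genes. In the U2AF and branch-point list it was 8 of 14. The narrowness of the members is a description and was not tested. The members left out for low values were Srsf12 and Snrpf. Values of 10 members are uncertain because over 20% of the 50-base stretches of their transcripts also occur in other genes: Hnrnpa1 (28.2%), Hnrnpa3 (27.1%), Hnrnpab (23.8%), Hnrnpf (61.9%), Sf3b4 (45.3%), Snrpa (20.2%), Snrpert (55.7%), Snrpf (89.5%), Srsf2 (20.7%) and Srsf4 (39.5%).

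**Figure D1:**
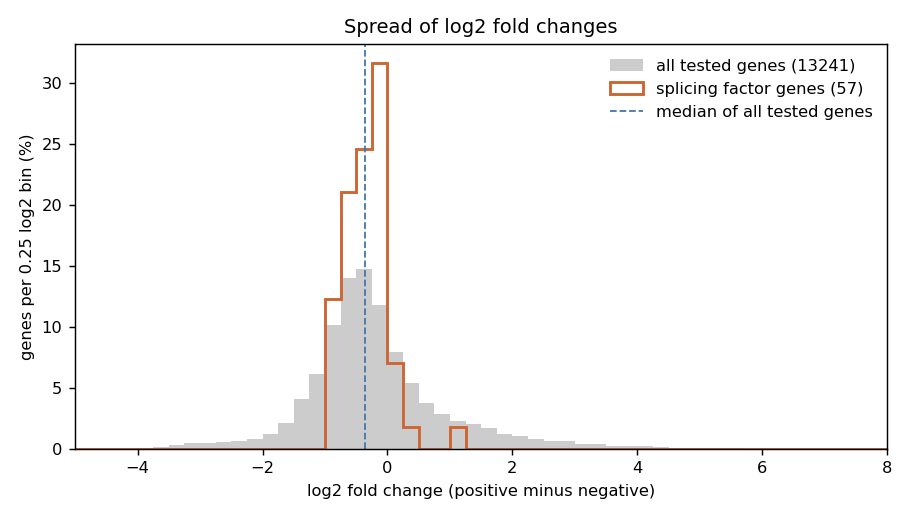
Share of genes per bin of 0.25 log2 units (y axis, %) by log2 fold change (x axis, S100A4-positive minus S100A4-negative) for all 13241 tested genes (grey) and the 57 tested splicing factor genes (orange outline). The members gather around the dashed line, the median of all tested genes at -0.36, and none lies below -0.96 or above 1.09.

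The scaling of the libraries decided how many members were called. FPKM takes each library relative to its total. The 10 most abundant genes took 8.13% to 10.6% of all FPKM in S100A4-negative libraries. They took a smaller share, 7.22% to 7.55%, in S100A4-positive libraries, where the typical tested gene was lower (median log2 fold change -0.36). The part of these shares in the calls was not tested. After median-of-ratios rescaling, which sets the typical gene to no change and moved the median of all tested genes by 0.34 on the log2 scale, 6 members were lower, 6 higher and 45 not called, against 24.3% lower and 27.7% higher of all tested genes (52.0% in either direction). The members' median was then -0.02. In both scalings the same 6 genes fell (Sf3a1, Srsf1, Hnrnpr, Snrnp48, Snrnp70 and Snrpa1) and the same 2 rose (Snrnp35 and Hnrnph2). A further 22 fell only with FPKM as deposited, 4 rose only after rescaling (Srsf9, Snrnp27, Snrpb and Snrpc), 23 were called in neither and 0 changed direction between calls. The authors' deposited table, which scales reads by size factors, calls 2 of the 57 members higher, the same Snrnp35 and Hnrnph2, and 0 lower, where it calls 19.8% of all tested genes higher and 13.8% lower (33.7% in either direction). In the text below, a fall that was called only with FPKM as deposited is to be read as a fall relative to the library total.

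**Figure D2:**
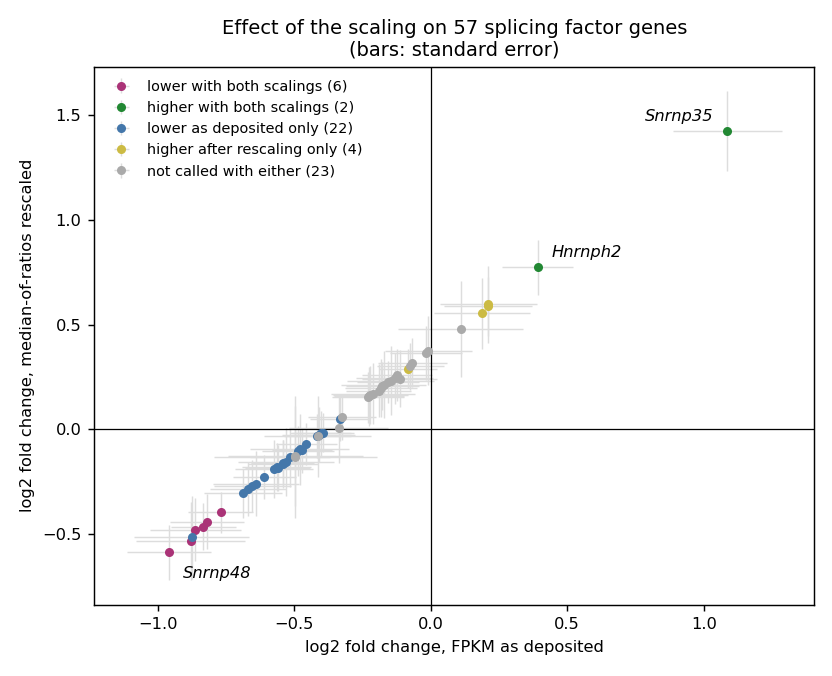
Log2 fold change with FPKM as deposited (x axis) against the log2 fold change after median-of-ratios rescaling (y axis) for 57 genes, with standard errors as bars. The rescaled values lie higher throughout, and Snrnp35, Hnrnph2 and the 6 genes at the lower left keep their calls with both scalings.

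The hnRNP family had 11 of 20 genes lower, 1 higher and 8 not called, where 43.4% of all tested genes were lower and 19.0% higher. Its median log2 fold change was -0.36, equal to that of all genes to within 0.01. Hnrnpk, which binds cytosine-rich RNA, was the most abundant member, at 515, 542 and 608 FPKM in S100A4-negative and 494, 504 and 525 FPKM in S100A4-positive libraries. These groups overlap, and the difference of -0.13 (SE 0.13) did not pass (limma adjusted p = 0.415). Hnrnpa1 and Hnrnpa2b1, the core A/B proteins of hnRNP particles, fell by 0.57 and 0.48 on the log2 scale. Their close relative Hnrnpa3 did not pass, with a log2 fold change of -0.07 from 334 ± 31.8 to 318 ± 18.7 FPKM (SD, n = 3). The call of Hnrnpa2b1 was at the threshold (limma adjusted p = 0.0496), its groups overlapped, and it was lost in 4 of the 6 fits that left out a library (up to 0.161).

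Hnrnph2, an X-linked gene for a protein that binds guanine-rich RNA, was the only hnRNP gene that rose. Its FPKM was 49.9, 60.6 and 63.2 in S100A4-negative and 71.2, 82.9 and 73.9 in S100A4-positive libraries. Every S100A4-positive library lay above every S100A4-negative one, as in 20.9% of all tested genes. The log2 fold change was 0.39 (SE 0.13, limma adjusted p = 0.0331) as deposited and 0.77 (0.00279) after rescaling. As deposited, the call was lost without S100A4-negative replicate 1 or 2 or S100A4-positive replicate 2 or 3 (limma adjusted p of up to 0.0959). The gene lies on chromosome X, 134601179 to 134607060 of GRCm38, and 15.9% of the 50-base stretches of its transcripts also occur in transcripts of other genes.

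Of its paralogs, Hnrnph1 and Hnrnph3 fell with FPKM as deposited, and Hnrnpf was not called. Hnrnph1 was at 558, 499 and 624 FPKM in S100A4-negative and at 368, 323 and 375 FPKM in S100A4-positive libraries, with no overlap and a log2 difference of -0.65 (SE 0.14, limma adjusted p = 0.00556). Hnrnph3, the shorter relative, was the hnRNP gene with the largest fall, from 18.1, 24.6 and 23.3 FPKM to 10.4, 9.23 and 15.5 FPKM (log2 fold change -0.88, SE 0.21, limma adjusted p = 0.00888). Neither fall was called after rescaling (limma adjusted p = 0.109 and 0.0642). Hnrnpf, the remaining member of this subfamily, was at 185 ± 26.1 and 184 ± 25.8 FPKM (limma adjusted p = 0.964), and 61.9% of its 50-base stretches occur in transcripts of other genes, so its value is uncertain.

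Hnrnpr, an RNA-binding protein close to Syncrip, fell with both scalings. It was at 38.4, 39.3 and 44.3 FPKM in S100A4-negative and at 23.3, 21.6 and 25.5 FPKM in S100A4-positive libraries. The groups lay well apart, with a log2 difference of -0.77 (SE 0.12, limma adjusted p = 0.00133) as deposited and -0.40 (0.0133) after rescaling. Hnrnpl, which holds back CD45 variable exons, fell from 289, 309 and 299 FPKM to 206, 158 and 202 FPKM (log2 fold change -0.67, SE 0.14, limma adjusted p = 0.00479), a fall not called after rescaling (0.103). Hnrnpll, the activation-linked repressor of the same exons, did not pass, at 18.1, 28.3 and 19.7 FPKM against 30.5, 18.4 and 22.8 FPKM. Hnrnpa0, Hnrnpu, Hnrnpul1, Hnrnpul2 and Hnrnpdl also fell, by 0.52, 0.42, 0.33, 0.39 and 0.40 on the log2 scale, and each lost its call in at least 1 fit that left out a library. Hnrnpab, Hnrnpc, Hnrnpd and Hnrnpm did not pass, with log2 fold changes between -0.23 and -0.16.

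**Figure D3:**
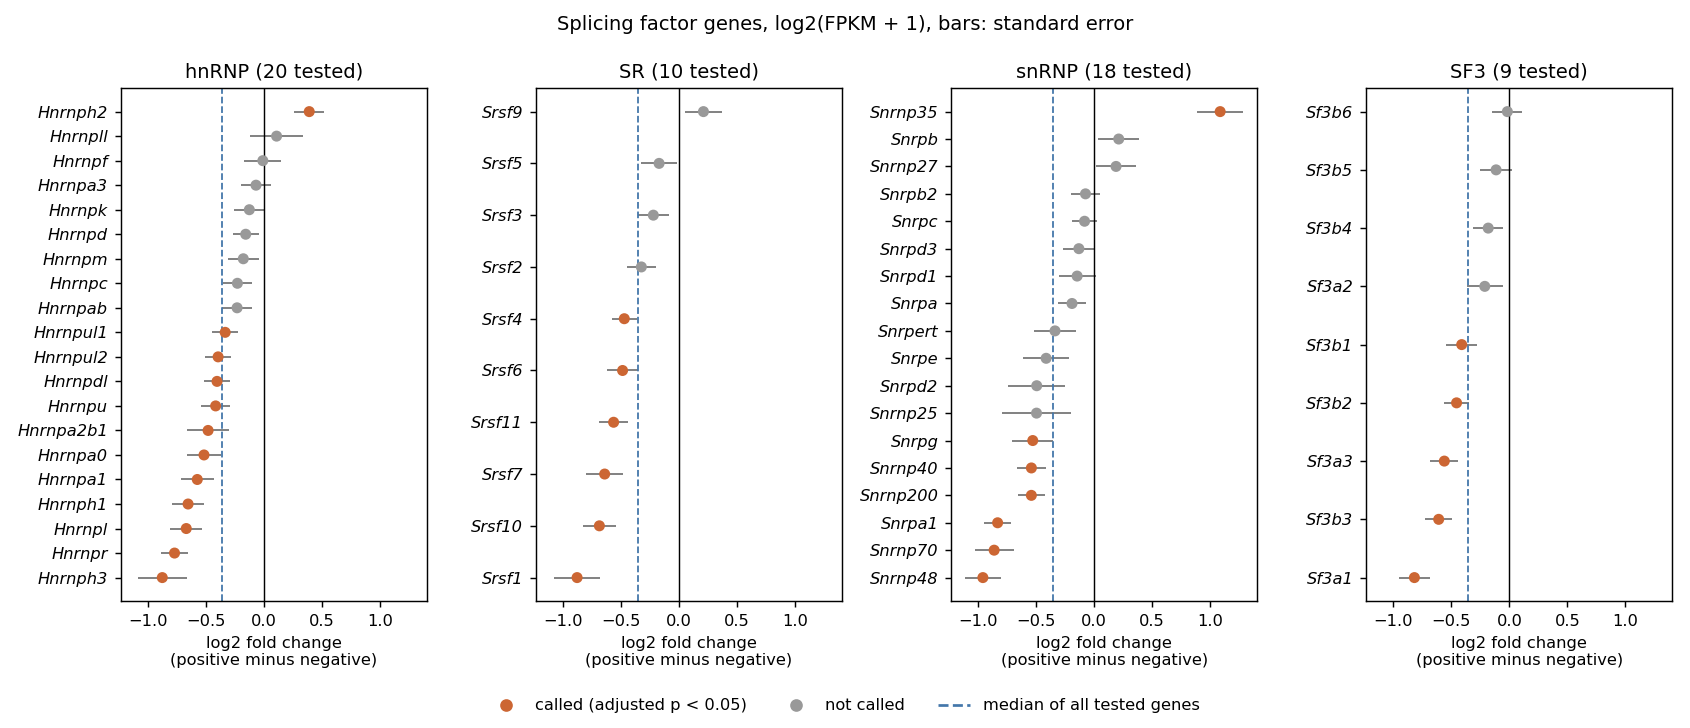
Log2 fold change (x axis, S100A4-positive minus S100A4-negative, on log2(FPKM + 1)) of every tested member in 4 panels, with standard errors as bars, orange for called and grey for not called. The dashed line is the median of all tested genes at -0.36. The called members lie to the left of zero apart from Hnrnph2 and Snrnp35.

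Of the 10 tested SR genes, 6 fell, 0 rose and 4 were not called, and the median was -0.48. For all tested genes the shares were 43.4% lower and 19.0% higher, and the median was -0.36. By an unadjusted limma p under 0.05, 7 of the 10 passed, as did 8869 of all 13241 tested genes. Srsf5 was the most abundant, at 459, 504 and 535 FPKM in S100A4-negative and 371, 463 and 503 FPKM in S100A4-positive libraries. The groups overlap and the log2 fold change of -0.17 did not pass (limma adjusted p = 0.360). Srsf1, the founding member that promotes exon inclusion, had the largest fall. It was at 9.08, 14.4 and 15.0 FPKM in S100A4-negative and at 6.32, 5.95 and 6.83 FPKM in S100A4-positive libraries, from 155 to 488 reads. The groups did not overlap, S100A4-negative replicate 1 lay nearest to the other group, and the log2 fold change was -0.88 (SE 0.20, limma adjusted p = 0.00705), or -0.53 (0.0474) after rescaling. With voom on the recovered reads and size factors, the adjusted p was 0.0551.

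Srsf10, a splicing repressor when dephosphorylated, fell from 107, 97.4 and 133 FPKM to 72.4, 63.3 and 70.8 FPKM (log2 fold change -0.69, SE 0.14, limma adjusted p = 0.00482). Srsf7, Srsf11, Srsf6 and Srsf4 fell by 0.64, 0.56, 0.49 and 0.47 on the log2 scale. After rescaling none of these 5 was called. Srsf2 and Srsf3 had log2 fold changes of -0.33 and -0.22 that did not pass (limma adjusted p = 0.0539 and 0.189), although their groups did not overlap. Over the 57 members, every S100A4-positive library was lower than every S100A4-negative one for 31, as for 49.1% of all tested genes. Srsf9, the closest relative of Srsf1, had a positive value with FPKM as deposited, from 33.0 ± 4.23 to 38.5 ± 6.33 FPKM, which did not pass (limma adjusted p = 0.285), and it was called higher after rescaling (log2 fold change 0.59, limma adjusted p = 0.0119). Srsf12 was near the limit of detection with 29, 17 and 15 reads in S100A4-negative and 6, 2 and 1 reads in S100A4-positive libraries. The authors' deposited table gives Srsf12 a log2 fold change of -2.29 and calls it. Reads of Srsf4 and Srsf2 are uncertain, since 43.0% and 25.3% of their exon bases overlap other genes.

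The annotation lists transcripts that are targets of nonsense-mediated decay for 9 of the 10 tested SR genes and for 30.2% of all tested protein-coding genes. The hnRNP, snRNP and SF3 families had such transcripts in 10 of 20, 5 of 17 and 1 of 9 protein-coding genes. FPKM per gene adds all transcripts together, so a change in the share of such forms is not visible in these values.

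**Figure D4:**
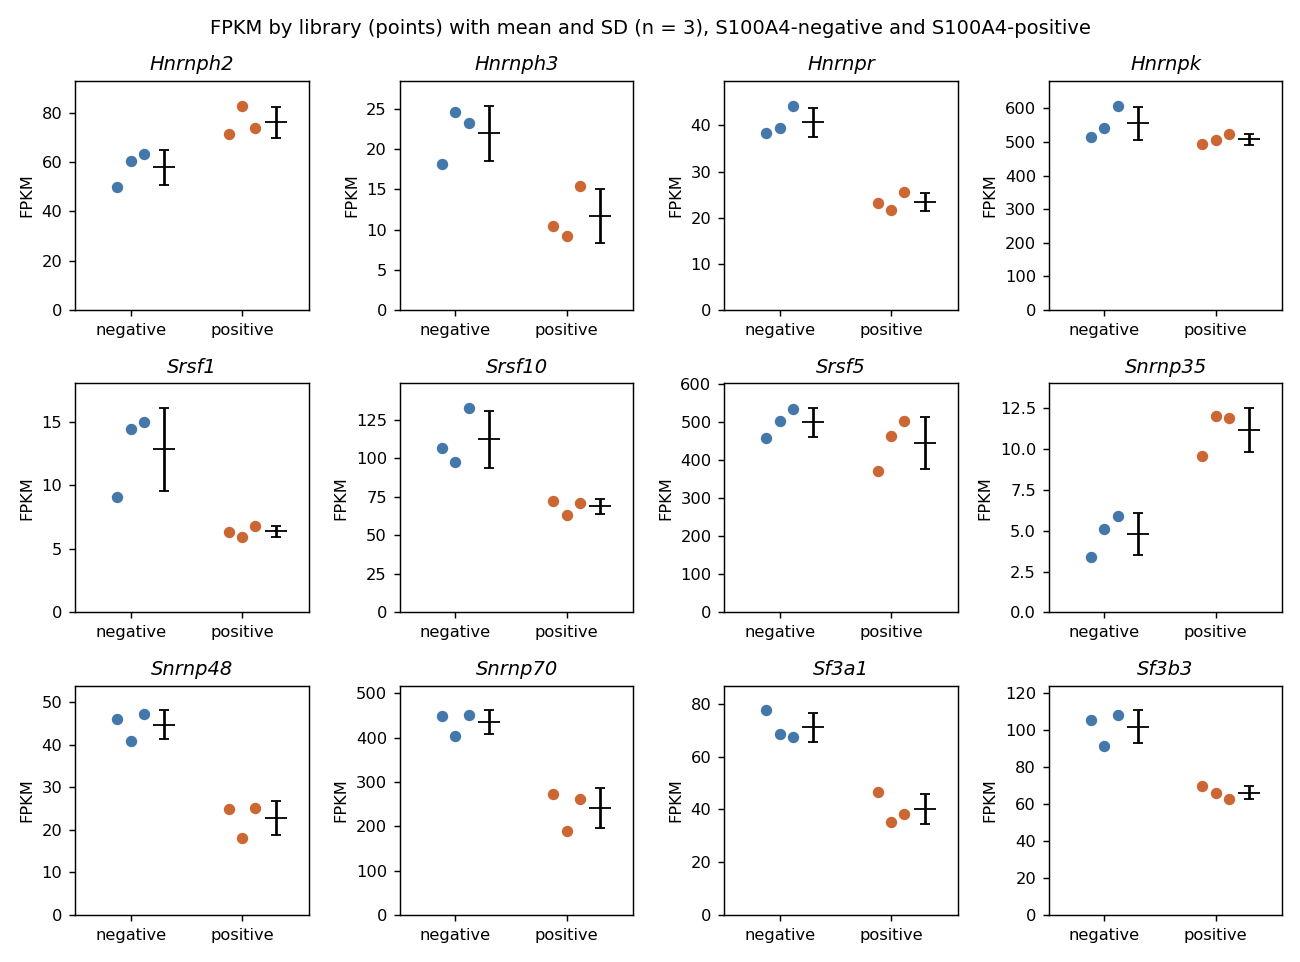
FPKM (y axis, from 0) of 12 splicing factor genes in each S100A4-negative (blue) and S100A4-positive (orange) library, with mean and SD (n = 3) in black. Hnrnph2 and Snrnp35 are higher in every S100A4-positive library, Hnrnpk and Srsf5 overlap, and the other 8 are lower in every S100A4-positive library.

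Among the snRNP genes, 6 of 18 tested fell, 1 rose and 11 were not called, and the median was -0.38. All tested genes had 43.4% lower and 19.0% higher, with a median of -0.36. The Sm proteins form the ring that binds most spliceosomal snRNAs, while U6 and its minor counterpart U6atac carry an LSm ring. Of their 6 tested genes, 1 fell and 5 did not pass. Snrpb, for the Sm proteins B and B', was the most abundant, at 118, 145 and 155 FPKM in S100A4-negative and 128, 187 and 171 FPKM in S100A4-positive libraries. The groups overlap and the log2 fold change of 0.21 did not pass (limma adjusted p = 0.328), whereas after rescaling it was 0.60 and called (0.0306). Snrpg fell from 41.5 ± 7.64 to 28.4 ± 4.58 FPKM (log2 fold change -0.53, limma adjusted p = 0.0317), and lost its call without S100A4-negative replicate 2 or 3 or S100A4-positive replicate 1 or 2 (up to 0.102). Snrpe and Snrpd2 had log2 fold changes of -0.41 and -0.50 that did not pass, and Snrpd1 and Snrpd3 of -0.15 and -0.13.

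In all 6 Sm genes tested, replicate 1 was the lowest library of each group, which held for 43.9% of the 57 members and 18.9% of all tested genes. Snrpe, for example, was at 63.2, 83.7 and 92.9 FPKM in S100A4-negative and at 47.1, 61.8 and 70.4 FPKM in S100A4-positive libraries. Without S100A4-negative replicate 1, Snrpe, Snrpd2 and Snrnp25 were called lower (limma adjusted p = 0.0409, 0.0280 and 0.0473). This library was the lowest of its group for each of them, so leaving it out raises the S100A4-negative mean. With other libraries left out, their limma adjusted p reached 0.279, 0.326 and 0.473. Snrpf, the seventh Sm gene, had only 4 to 22 reads per library. As 85.4% of its exon bases overlap genes on the opposite strand and 89.5% of its 50-base stretches occur in other genes' transcripts, its low value cannot be read as its level. Snrpert, the pseudogene that resembles Snrpe, did not pass, at 8.66, 7.26 and 11.1 FPKM against 5.92, 7.20 and 7.44 FPKM (28 to 58 reads per library).

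The U1 snRNP marks the start of introns. Snrnp70, its U1-70K protein, was the most abundant snRNP gene and fell with both scalings. It was at 449, 405 and 452 FPKM in S100A4-negative and at 273, 189 and 262 FPKM in S100A4-positive libraries. No S100A4-positive library came near the other group, and the log2 fold change was -0.86 (SE 0.17, limma adjusted p = 0.00355), or -0.48 (0.0326) after rescaling. The other U1 proteins did not pass as deposited: Snrpa went from 40.2 ± 4.15 to 35.0 ± 1.64 FPKM and Snrpc from 29.6 ± 1.66 to 27.9 ± 0.708 FPKM (limma adjusted p = 0.190 and 0.509). Snrpc was called higher after rescaling (log2 fold change 0.29, limma adjusted p = 0.0374).

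The U2 snRNP binds the branch point, and Snrpa1 and Snrpb2 encode a pair of its specific proteins. Snrpa1 fell with both scalings, from 25.9, 29.7 and 30.5 FPKM to 14.7, 15.7 and 16.5 FPKM (log2 fold change -0.83, SE 0.12, limma adjusted p = 9.80e-04). Snrpb2 was at 33.9, 34.4 and 41.2 FPKM against 32.0, 36.3 and 35.2 FPKM, with overlapping groups and no call (limma adjusted p = 0.611). Of the U5 proteins, the helicase gene Snrnp200 and the WD-repeat gene Snrnp40 fell by 0.54 each as deposited and were not called after rescaling. Snrnp27, of the U4/U6.U5 tri-snRNP, had a log2 fold change of 0.19 that did not pass, and rose after rescaling (0.55, limma adjusted p = 0.0293).

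The largest rise and the largest fall of all tested members were both in the minor spliceosome. Snrnp35 encodes a protein of the U11/U12 snRNP that resembles U1-70K, and Snrnp48 a protein of U11 that meets the start of minor introns. Snrnp35 was at 3.41, 5.10 and 5.92 FPKM in S100A4-negative libraries, from 53, 83 and 101 reads, and at 9.61, 12.01 and 11.9 FPKM in S100A4-positive libraries, from 149, 164 and 189 reads. Every S100A4-positive library was above every S100A4-negative one, with a log2 difference of 1.09 (SE 0.20, limma adjusted p = 0.00287) as deposited and 1.42 (9.17e-04) after rescaling. In the authors' deposited table it is 1.61, with an adjusted p of 2.13e-05. The call held in each of the 6 fits that left out a library (limma adjusted p of up to 0.0129).

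Snrnp48 was at 46.0, 40.9 and 47.2 FPKM in S100A4-negative and at 24.9, 18.1 and 25.03 FPKM in S100A4-positive libraries. Its level was thus lower in every S100A4-positive library, with a log2 difference of -0.96 (SE 0.15, limma adjusted p = 0.00158) as deposited and -0.59 (0.00865) after rescaling. Snrnp25, another protein of this particle, spread widely within each group (15.4 to 31.8 and 11.5 to 21.4 FPKM) and did not pass (limma adjusted p = 0.179). Of 10 minor spliceosome genes outside the 4 families, 6 fell and 0 rose, where 43.4% of all tested genes were lower and 19.0% higher. Among those that fell were Zrsr1, Armc7 and Pdcd7 with log2 fold changes of -1.36, -0.96 and -0.70. After rescaling 2 of the 10 were lower (Zrsr1 and Armc7) and 2 higher (Zcrb1 and Zmat5), and Pdcd7 was not called (limma adjusted p = 0.0652).

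The sequences before the RefSeq starts of Snrnp35 and Snrnp48 (GRCm38.p6, + strand) are shown because these genes moved in opposite directions. Each line gives 200 bases 5′ to 3′, ending 50 bases before the start, at chr5:124482905-124483104 for Snrnp35 and chr13:38204689-38204888 for Snrnp48. Capitals mark matches, on either strand, to the ETS core, GC box, CCAAT box, NRF1 and TATA box motifs that are spelled out with the SF3 promoters or given by name.
Snrnp35: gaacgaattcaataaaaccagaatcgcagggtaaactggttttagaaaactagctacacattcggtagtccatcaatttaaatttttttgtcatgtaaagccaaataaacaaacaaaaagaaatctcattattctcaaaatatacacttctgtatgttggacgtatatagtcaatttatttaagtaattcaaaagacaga
Snrnp48: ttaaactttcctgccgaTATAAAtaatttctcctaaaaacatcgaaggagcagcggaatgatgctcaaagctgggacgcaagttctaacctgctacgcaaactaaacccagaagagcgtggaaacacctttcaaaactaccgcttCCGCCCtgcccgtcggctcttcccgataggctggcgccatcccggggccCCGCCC
The Snrnp35 stretch holds 0 matches and 29.0% G or C, and the Snrnp48 stretch holds 2 GC boxes and 1 TATA box and 53.0% G or C. A match is only a run of letters, and no binding was measured here.

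The SF3A and SF3B complexes are parts of the U2 snRNP that hold it to the branch point. Of their 9 genes, 5 fell, 0 rose and 4 were not called, and the median was -0.41. Among all tested genes 43.4% were called lower and 19.0% higher, with a median of -0.36. Sf3b1, the large scaffold that contacts the branch-point helix, was the most abundant, at 586, 468 and 536 FPKM in S100A4-negative and 399, 391 and 400 FPKM in S100A4-positive libraries. The groups did not overlap, and the log2 fold change was -0.41 (SE 0.13, limma adjusted p = 0.0287). It lost this call after rescaling (0.885) and without S100A4-negative replicate 1 or 3 or S100A4-positive replicate 2 or 3 (up to 0.0849). Sf3a1, the SF3A scaffold, had the largest fall of the family, from 77.5, 68.5 and 67.6 FPKM to 46.6, 35.4 and 38.3 FPKM. All S100A4-positive libraries were lower, with a log2 difference of -0.82 (SE 0.14, limma adjusted p = 0.00179), or -0.44 (0.0265) after rescaling.

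Sf3b3 followed with 105, 91.4 and 108 FPKM against 69.6, 66.0 and 62.5 FPKM (log2 fold change -0.61, SE 0.11, limma adjusted p = 0.00311). Sf3a3 and Sf3b2 fell by 0.56 and 0.46 on the log2 scale. After rescaling these 3 were not called. The genes for smaller SF3B subunits did not pass: Sf3b4, Sf3b5 and Sf3b6 had log2 fold changes of -0.18, -0.11 and -0.02. Sf3b6, the subunit next to the branch-point adenosine, was at 58.8, 64.0 and 71.1 FPKM in S100A4-negative and at 56.1, 69.8 and 65.8 FPKM in S100A4-positive libraries. Sf3a2 also did not pass, at 95.7 ± 11.5 and 82.7 ± 13.4 FPKM.

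RefSeq promoters were found for 51 of the 59 members. Each member entered with a single promoter, the start nearest to its start in GENCODE M21. The comparison shares below count every listed start, so a gene can enter more than once. For every motif, the shares of members and of other promoters are therefore not counted alike. In the 250 bases before the start, the ETS core CCGGAAG occurred, on either strand, in 17 of the 51 (33.3%), against 6.91% of 32851 promoters in the table and 13.8% of 11914 promoters of tested genes. In the SF3 family it occurred in 6 of 7 promoters, in the SR, hnRNP and snRNP families in 4 of 11, 2 of 18 and 5 of 15. These 6 are shown because they share the letters, although 4 of the genes fell and 2 did not pass. Each stretch is 27 bases, 5′ to 3′ on the gene's strand, with the match in capitals, at chr11:4160327-4160353 (+), chr10:80798649-80798675 (+), chr4:124714761-124714787 (+), chr19:5295456-5295482 (-), chr8:110847016-110847042 (-) and chr12:4817528-4817554 (+) of GRCm38.p6 in the order given.
Sf3a1: gaaacggcgagagggcgggaCCGGAAG
Sf3a2: gcctttgctcCCGGAAGggatcgcttc
Sf3a3: ccccaagacaCTTCCGGgacacgcgga
Sf3b2: cgtggattacgcaaCCGGAAGtttctg
Sf3b3: ccggtgggcgCTTCCGGgcttgcgagg
Sf3b6: ggtccgcaatCCGGAAGcgttctggag
Over all families, the ETS core was in 9 of 26 promoters of members that fell, 8 of 21 of members not called and 0 of 2 of members that rose. GC boxes (GGGCGG) were in 37 of 51 member promoters (72.5%) and in 56.4% of promoters of tested genes. CCAAT occurred in 41.2% of member promoters and 35.1% of promoters of tested genes. The NRF1 motif occurred in 11.8% and 8.02%, and TATAAA in 11.8% and 6.61%. Over all 32851 promoters, GC boxes were in 32.7%, CCAAT in 33.8%, the NRF1 motif in 3.74% and TATAAA in 12.4%. Both strands were searched for each motif.

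Ratios of 2 members within a library do not depend on how libraries are scaled. The 12 pairs of relatives or partners were chosen after their values were seen and are therefore given with no test. In each pair the gene with the higher log2 fold change was put on top. That every ratio was higher in S100A4-positive libraries thus follows from this choice and is not a result. Only the sizes of the ratios are described. The ratio of Snrnp35 to Snrnp48 was 0.0742, 0.125 and 0.126 in S100A4-negative and 0.386, 0.665 and 0.476 in S100A4-positive libraries, which is 4.72-fold between the geometric means. Srsf9 to Srsf1 was at 3.11, 2.41 and 2.42 against 6.37, 5.29 and 6.403, or 2.29-fold. Hnrnph2 to Hnrnph1 was at 0.0893, 0.121 and 0.101 against 0.194, 0.257 and 0.197, or 2.07-fold. For genes of the U2 and U1 particles, the ratio of Snrpb2 to Snrpa1 was 1.74-fold and that of Snrpc to Snrnp70 1.72-fold higher. The ratio of Hnrnpll to Hnrnpl, the CD45 exon regulators, was 0.0625, 0.0917 and 0.0660 against 0.148, 0.117 and 0.113.

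**Figure D5:**
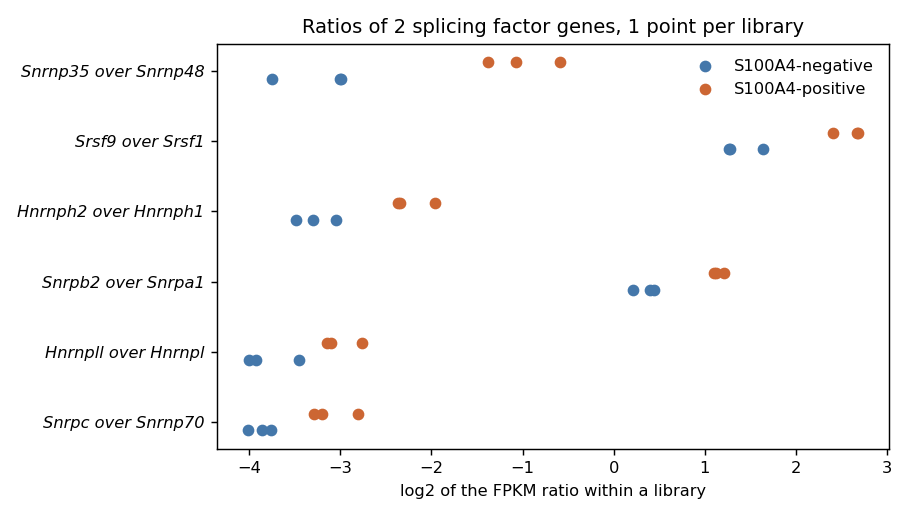
Log2 of the FPKM ratio of 2 genes within each library (x axis) for 6 pairs (y axis), with S100A4-negative libraries in blue and S100A4-positive libraries in orange. In each pair the 3 orange points lie to the right of the 3 blue points, most widely for Snrnp35 over Snrnp48. The gene with the higher log2 fold change was put on top of each ratio, so the shared direction was set by that choice.

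Summed over the 59 genes, the members took 1.36%, 1.37% and 1.53% of reads in S100A4-negative and 1.06%, 1.06% and 1.15% in S100A4-positive libraries. These groups did not overlap. Single genes were likewise lower without overlap in 49.1% of all tested genes, whose median log2 fold change was -0.36. A difference of this sum from other genes was not tested. The hnRNP genes made up the largest part, at 0.771% ± 0.0653 and 0.603% ± 0.0323 of reads (SD, n = 3). The SF3 genes took 0.234% ± 0.02003 and 0.173% ± 0.00409.

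Other splicing genes, in 9 lists, also had mostly falls among their calls with FPKM as deposited. For comparison, 43.4% of all tested genes were called lower and 19.0% higher, with a median of -0.36. After rescaling these shares were 24.3% and 27.7%. Of 15 tested genes for snRNP assembly, the SMN complex and import, 11 fell and 0 rose (median -0.84), led by Prmt5, the methyltransferase of Sm proteins, from 53.6 ± 7.26 to 22.8 ± 0.915 FPKM. Gemin8 and Gemin5 had log2 fold changes of -1.12 and -1.07. After rescaling 7 of the 15 were lower. Of 16 SR protein kinases and related factors, 13 fell and 0 rose (median -0.64), and the kinase genes Srpk1, Srpk3 and Srpk2 had the largest falls. Srpk1, which phosphorylates SR proteins in the cytoplasm, fell from 90.8 ± 6.51 to 32.1 ± 3.06 FPKM. This is -1.47 on the log2 scale (SE 0.12, limma adjusted p = 9.46e-05), and -1.09 after rescaling. Srpk3 lost its call in a fit that left out a library (limma adjusted p of up to 0.0885) and after rescaling (0.0821). After rescaling 4 of the 16 were lower and 1 higher.

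Of 21 Prp and tri-snRNP genes, 16 fell and 0 rose (median -0.56), led by Luc7l, Luc7l3 and Prpf4 with log2 fold changes of -1.07, -0.93 and -0.89. The U2AF and branch-point list had 8 of 14 lower (Ddx42, Sugp1 and Ddx46 at -0.82, -0.70 and -0.70), and the Prp19 complex and second-step list 12 of 23 (Isy1, Prpf18 and Aqr at -1.09, -0.82 and -0.63), with 0 higher in each. After rescaling the Prp list had 6 lower and 1 higher, the U2AF list 4 lower and 0 higher, and the Prp19 list 2 lower and 2 higher. Exon junction and nonsense-mediated decay genes had 10 of 18 lower and 0 higher, with Upf3b, Smg6 and Upf2 at -1.09, -0.84 and -0.80. After rescaling 2 of these genes were lower and 0 higher. The medians of the U2AF, Prp19 complex and decay lists (-0.39, -0.37 and -0.42) were close to the -0.36 of all tested genes. LSm ring genes had 5 of 10 lower and 1 higher as deposited, and 3 lower and 1 higher after rescaling. Lsm10, of the U7 snRNP that processes histone mRNA, was the one that rose, from 12.4 ± 1.36 to 22.6 ± 1.82 FPKM (log2 fold change 0.81, limma adjusted p = 0.00161), while Lsm1 and Lsm8 fell by 0.88 and 0.85.

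Of 30 other RNA-binding splicing regulators, 19 fell and 3 rose (median -0.49), and after rescaling 10 were lower and 4 higher. Qk, the quaking gene, rose from 26.5 ± 2.22 to 70.6 ± 6.47 FPKM. This is 1.38 on the log2 scale (SE 0.12, limma adjusted p = 1.33e-04), and 1.75 after rescaling. Mbnl1, a muscleblind regulator, fell from 447 ± 55.7 to 187 ± 17.8 FPKM (log2 fold change -1.25), and Rbm10 fell by 1.26 on the log2 scale. These 3 were called with both scalings. Beside these lists, 8 of 10 cell cycle genes fell in the same libraries, with a summed 493 to 669 FPKM in S100A4-negative and 298 to 428 FPKM in S100A4-positive libraries, and their part in the results was not tested.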

How the data were processed

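The submitters' processing notes name HISAT2 2.1.0, Cufflinks, Cuffnorm and mm10, with no role for each. Expression values were deposited as FPKM for every gene in every library. A table of the authors' own comparison, per the file headers, holds mean normalized counts of both groups (used as a signal), log2 fold changes, p-values and adjusted p-values; the sources used here do not give its test.

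Whole reads were recovered from both tables: all 135018 values above 0 lay within 0.02 of a whole read. Strand handling is not stated, so genes sharing exons or sequence are uncertain. Intervals are not given for levels; precision rests on 3 libraries per group. Per-sample columns left unused numbered 0.

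Testing covered the 13241 genes whose mean reached 1 FPKM (42710 were left out). It used limma (version 3.58.1, R version 4.3.3) with values of log2(FPKM + 1), trended prior variance, Benjamini-Hochberg adjustment over all tested genes. A set of 50-base stretches of GENCODE M21 transcripts measured sequence sharing. Alternatives were pseudocount 0.1, no filter, a filter of 5, median-of-ratios and quantile scaling, no trend, the replicate block, voom on recovered reads and leaving out each library.

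Members and lists were chosen with earlier results of these data known. Named with full values were, per family, the called genes with the 2 largest rises and falls, the most abundant gene and called genes against the family's direction; per other list, the 3 called genes with the largest change. Others were named after their values were seen. Python 3.11.15, numpy 2.4.6, pandas 2.3.3, scipy 1.17.1 and matplotlib 3.10.9 were used.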

Additional observations from a re-analysis of the deposited data

How the results depend on the processing

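With median-of-ratios rescaling, 6 members were called higher and 6 lower, and with voom on recovered reads 7 and 5, against 2 and 28 with FPKM as deposited. All tested genes called lower numbered 5741, and 3217 and 3156 under these settings. The hnRNP median log2 fold change of -0.36 turned to 0.0181 and 0.0177. The SR median log2 fold change went from -0.48 to -0.10 and -0.10, the snRNP median log2 fold change from -0.38 to -0.0138 and -0.0188 (-0.16 with quantile normalization), and the SF3 median log2 fold change from -0.41 to -0.0251 and -0.0253. Calls in either direction numbered 4 and 4 of the U2AF list, 7 and 6 of the Prp list, 4 and 4 of the Prp19 complex list (6 with quantile normalization), 5 and 5 of the SR kinase list, 14 and 14 of the other regulators and 2 and 2 of the decay list. With either of these settings they included genes called higher: 1 of the Prp, 2 of the Prp19 complex, 1 of the SR kinase and 4 of the other regulator list. The minor spliceosome list had 2 higher and 2 lower with each. The LSm list had 3 with voom, and the snRNP assembly list 7 with rescaling, with voom and with a filter of 5, where fewer genes were tested. In the first 2 settings the shift follows from the scaling itself, and elsewhere the cause was not tested. Without a filter 1 member was higher, as Hnrnph2 lost its call (limma adjusted p = 0.0539).

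Leaving out each library gave 1 to 2 members higher and 19 to 29 lower, the lowest without S100A4-negative replicate 3. It gave 8 to 12 called SR kinase genes, 5 to 9 LSm genes and 8 to 12 snRNP assembly genes. The snRNP median ranged from -0.45 to -0.24. Another pseudocount, fitting without trend and voom with library totals, the last chosen after seeing the data, left 28, 27 and 28 members lower and 2 higher.

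Replicate numbers were not taken to pair libraries: same-numbered libraries had correlations of deviations of 0.47, 0.09 and 0.48 for numbers 1, 2 and 3 across 9498 genes, and 5 of 6 libraries correlated best with their own number. With the replicate block 31 members were lower and 2 higher, adding Snrnp25, Snrpd2 and Snrpe (limma adjusted p = 0.00879, 0.00987 and 0.00926), and 6188 genes were lower. Summing rows of a symbol left 59 members, since no symbol repeats, and a minimum FPKM of 1 left 57. Members with few reads, such as Srsf12 and Snrpf, limit what depth can show.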
